A study of Homo sapiens with 4 samples.

Results

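The comparison described here sets the array titled MIF siRNA 1# against the control RNA array and the array of untreated cells. These are 3 of the 4 arrays of the series, chosen by their titles alone. All arrays held total RNA of HEK293, a human embryonic kidney cell line, collected at 24 h. For MIF siRNA 1# (below, 1#) the cells had been transfected with a small interfering RNA against MIF by means of Lipofectamine 2000, a lipid reagent. In the series text the siRNA was given at 50 and at 100 pmol/ml, but the label of 1# names no dose. The remaining array, MIF siRNA 2# (below, 2#), is labelled 50 pmol/ml, and its signals stand beside those of 1#. Since both would be set against the same control arrays, likeness of 2# to 1# is not taken as a result. Whether 1# and 2# used the same siRNA sequence is not stated in the labels. Control RNA cells received an RNA with the same reagent, and its sequence is not stated. Untreated cells, titled Normal, were HEK293 cells without transfection. Each condition is thus 1 array of 1 cell line. Whether cultures were separate, and which chip, position or extraction day an array had, is not stated, so such differences cannot be told apart from the treatment.

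With 1 array against 2, the smallest p that an exact permutation test can reach is 0.333, so no p-value is given and only sizes are reported. A gene is called higher or lower here when 1# was at least 1.5-fold above, or at least 1.5-fold below, both control arrays. Its size is the smaller of its 2 log2 differences, 1# minus control RNA and 1# minus untreated. Signals are linear probe intensities after quantile normalization over the 4 arrays, and each of the 13755 genes compared is represented by its brightest probe. Levels are compared only within a gene, since probes differ in brightness for reasons other than RNA amount. In RNA from a whole culture, fewer expressing cells and less RNA per cell cannot be told apart.

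MIF, macrophage migration inhibitory factor, is a small, abundant cytokine that cells also keep in the cytosol, and it signals through the surface receptor CD74 with CD44, and through the chemokine receptors CXCR2 and CXCR4. Short interfering RNAs guide Argonaute proteins to a matching messenger RNA, which is then cut and degraded, and they can also lower other transcripts that match their seed. Growing cells spend much of their transcription on making ribosomes, a programme that the E-box binding factors MYC and MAX are known to drive. FOXO factors act in the opposite setting: growth factor signalling keeps them out of the nucleus, and when they enter it they induce cell cycle inhibitors and stress genes. YAP with TEAD, and SRF with its actin-sensing cofactors, are known to raise CCN1, CCN2 and other genes of adhesion and tension.

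The target of the siRNA was lower in 1# than in either control. MIF had a signal of 11614 in 1#, 17040 in 2#, 22463 with control RNA and 21908 in untreated cells. 1# held the lowest MIF signal of all arrays and the control arrays differed by 1.03-fold. MIF in 1# was thus 1.93-fold below control RNA and 1.89-fold below untreated cells (log2 differences of -0.95 and -0.92). DDT, which encodes the closest relative of MIF, had a signal of 8492 in 1#, 9975 in 2#, 11234 with control RNA and 10749 in untreated cells, also the lowest in 1# but short of 1.5-fold. Of the 14 genes listed for MIF, its receptors and its partners, MIF was the 1 gene called lower and CXCR4 the 1 called higher. CXCR4 had a signal of 869.0 in 1#, 551.5 in 2#, 326.1 with control RNA and 374.9 in untreated cells.

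Across the 13755 genes, 705 were called higher (5.13%) and 538 lower (3.91%). At 2-fold, 141 genes were higher (1.03%) and 75 lower (0.545%). Counted at any size, 5953 genes lay above both control arrays (43.3%) and 5675 below both (41.3%), while for 2127 genes (15.5%) the 1# signal fell between the controls. The control arrays lay much nearer each other: at the same 1.5-fold limit, 9 genes were higher with control RNA than in untreated cells (0.0654%) and 4 were lower (0.0291%). The SD over genes of the log2 difference was 0.40 for 1# minus control RNA and 0.37 for 1# minus untreated, against 0.13 for control RNA minus untreated. The median size was 0.76 for higher and -0.74 for lower genes (log2). Since no condition was repeated, the spread between cultures of a condition is not measured here.

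The split into higher and lower genes depended on the scaling. Scaling the arrays to equal medians instead of equal quantiles moved the median difference of all genes to 0.10 against control RNA and 0.12 against untreated cells, and gave 1398 higher and 270 lower genes. The share of calls that were higher was 56.7% after quantile normalization and 83.8% after median scaling. Of the genes called after quantile normalization, 699 higher and 252 lower ones were also called after median scaling. The medians of gene lists below are in log2, against control RNA first and untreated cells second, and stand beside a median of all genes of 0.01 for both differences after quantile normalization. Likewise, the share of a list that was called stands beside 5.13% higher and 3.91% lower of all genes. The lists were drawn up with earlier results of these data known, so these shares describe the lists and test nothing.

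**Figure D1:**
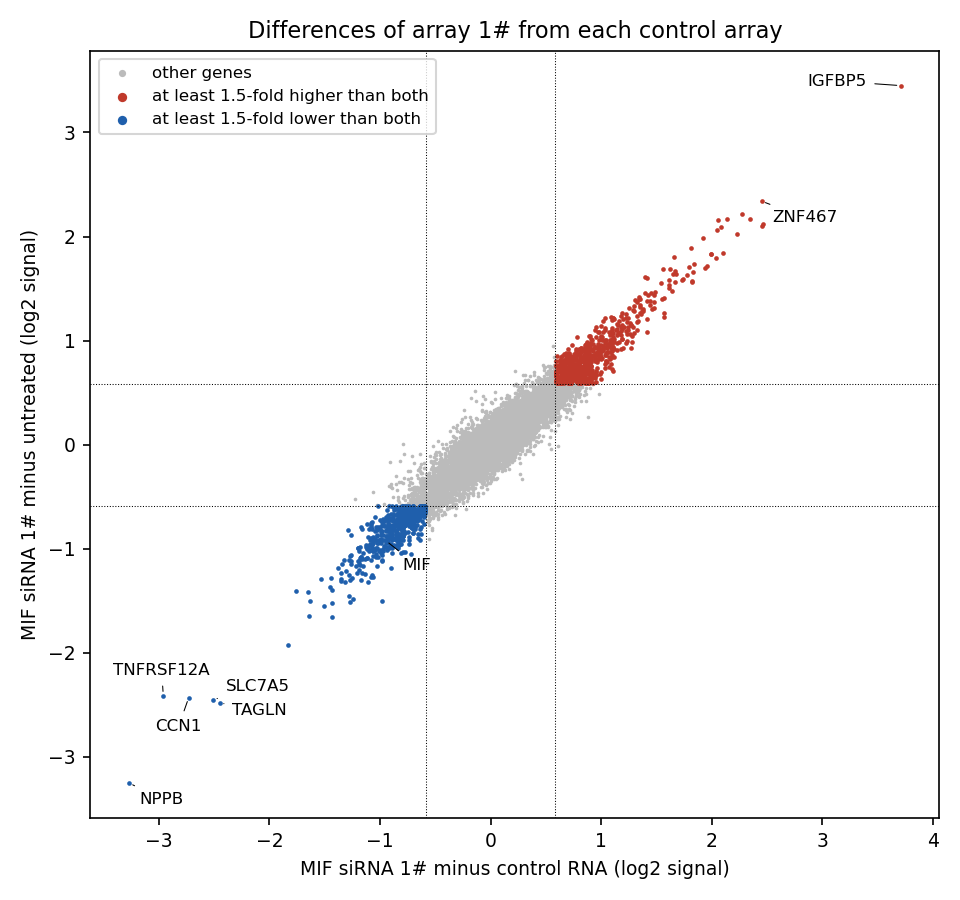
Each point is 1 of the 13755 genes, with its log2 difference of 1# from control RNA on the x axis and from untreated cells on the y axis, and dotted lines at 1.5-fold. The 705 red genes lay above and the 538 blue genes below both controls, from 3.71 and 3.45 for IGFBP5 to -3.27 and -3.25 for NPPB, and since both axes share the 1# array the points must line up.

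**Figure D2:**
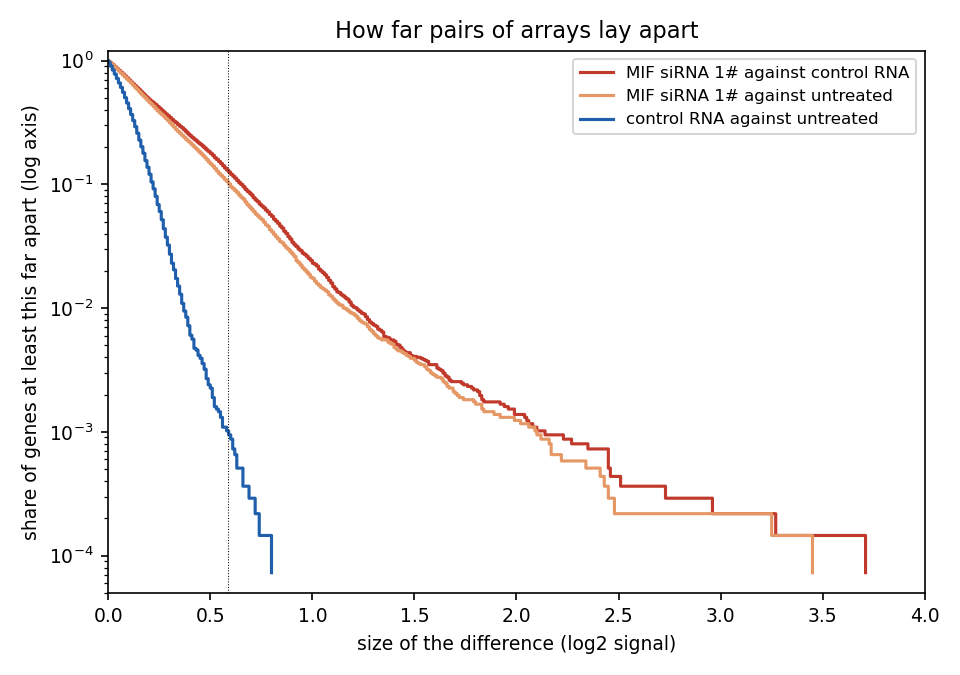
The y axis (log scale) is the share of genes whose log2 difference was at least the size on the x axis, for 3 pairs of arrays, and the dotted line stands at 1.5-fold. The 99th percentile was 1.21 for 1# against control RNA, 1.15 for 1# against untreated cells and 0.37 for control RNA against untreated cells.

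The gene furthest below the controls was NPPB, and NPPB, TAGLN, CCN1, TNFRSF12A, CCN2 and ANKRD1 among the 20 furthest below belong to the list of YAP and SRF targets. NPPB, the natriuretic peptide gene of stretched heart muscle, had a signal of 97.1 in 1#, 299.2 in 2#, 937.1 with control RNA and 926.2 in untreated cells, which made it 9.54-fold lower in 1# by the smaller difference. SLC7A5, the large neutral amino acid transporter LAT1, had 1106 in 1#, 3404 in 2#, 6322 with control RNA and 6054 in untreated cells. TAGLN, the actin-binding protein transgelin, had 297.5 in 1#, 1026 in 2#, 1621 with control RNA and 1661 in untreated cells. In each of these 3 genes 1# was the lowest array and the controls were close together. CCN1, a secreted matrix-associated protein, was 6.65-fold below control RNA and 5.37-fold below untreated cells, and TNFRSF12A, the receptor of the cytokine TWEAK, 7.78-fold and 5.30-fold. The controls differed more for TNFRSF12A, with 2683 for control RNA and 1828 for untreated cells, than for the others, but 1# at 344.8 was below both. Also among the 20 furthest below were OLR1, a receptor of oxidised lipoprotein (3.55-fold by the smaller difference), FSTL3, which binds activin (2.69-fold), SLC6A15, a neutral amino acid transporter (2.69-fold), RRP7A, a small ribosomal subunit assembly factor (2.49-fold), FAH, the last enzyme of tyrosine breakdown (2.67-fold), and FOSL1, a FOS-family partner in AP-1 (2.44-fold). ELAPOR1, AP1M2, DNPEP and MAP3K7CL completed that group together with genes described below, at 2.45 to 2.85-fold.

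The gene furthest above the controls was IGFBP5. Its product binds insulin-like growth factors in the matrix, and IGFBP5 had a signal of 2420 in 1#, 649.5 in 2#, 185.1 with control RNA and 221.6 in untreated cells, 10.92-fold above the nearer control. SELENOP, the plasma carrier of selenium, had 2791 in 1#, 1099 in 2#, 546.9 with control RNA and 620.5 in untreated cells. ZNF467, a zinc finger factor, had 778.1 in 1#, 345.3 in 2#, 142.1 with control RNA and 153.2 in untreated cells. The 1# array was the highest for all 3 genes and stood apart from both controls. FAXDC2 was higher by 4.67-fold, PARM1 by 4.36-fold, SULF1, which trims sulfate from heparan sulfate, by 4.29-fold, and FXYD6, a regulator of the sodium pump, by 4.23-fold. AKR1C3, a reductase of steroids and prostaglandins, was higher by 4.16-fold, PCK1, the gluconeogenic enzyme, by 3.56-fold, APOD, a lipid-binding apolipoprotein, by 3.57-fold, and KCNJ2, an inward rectifier potassium channel, by 3.35-fold. RHBDL3, ZNF503, PLSCR4, NREP and ADGRF5 were between 3.45 and 4.13-fold higher. Several of these genes were dim in the controls (PCK1 at 88.4 with control RNA and 98.4 in untreated cells, beside a median of all probes of 75.6), and background left in the signal makes such folds too small.

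**Figure D3:**
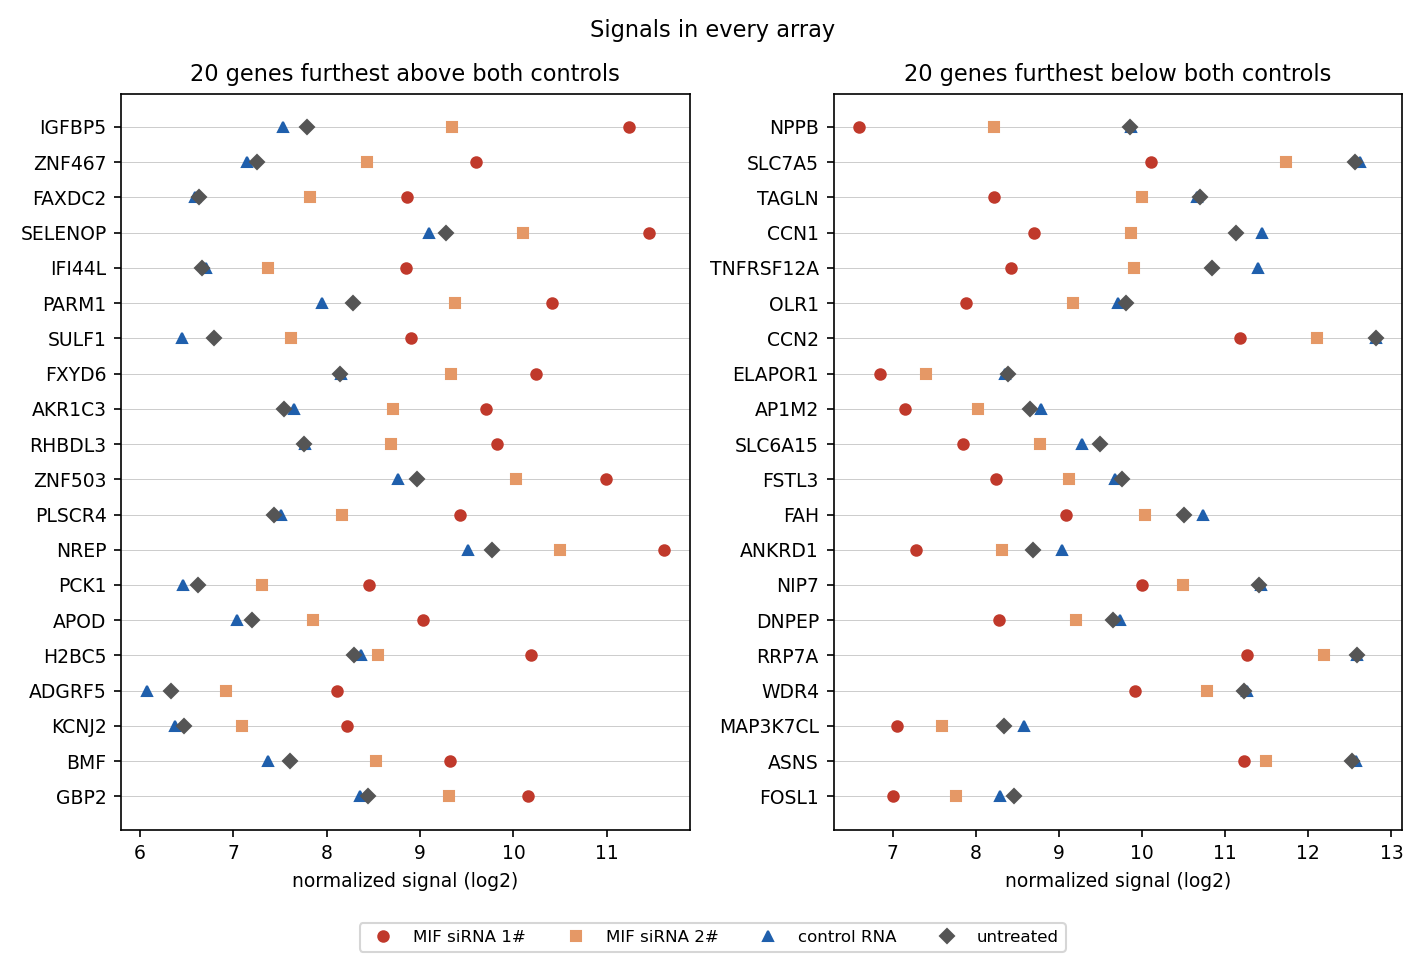
Normalized log2 signals (x axes) in each of the 4 arrays for the 20 genes furthest above and the 20 furthest below both controls. The genes were picked for 1#, so its red points lie at the end of each line, while the control arrays lie close together except in genes such as TNFRSF12A, at 2683 with control RNA and 1828 in untreated cells.

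Ribosome biogenesis was the list that lay lowest in 1# by its medians. Of its 50 genes compared, 19 were called lower (38.0%, against 3.91% of all genes) and 0 higher. Counted at any size, 48 were below both controls (41.3% of all genes were). The median difference of the list was -0.56 against control RNA and -0.57 against untreated cells, and -0.50 and -0.46 after median scaling. NIP7, a ribosome biogenesis factor, had 1026 in 1#, 1442 in 2#, 2771 with control RNA and 2710 in untreated cells. RRP9, a protein of the U3 particle that processes pre-ribosomal RNA, had 380.0 in 1#, 515.8 in 2#, 865.5 with control RNA and 873.6 in untreated cells. For both genes 1# was the lowest array, with the controls close together above. NOP16, a nucleolar protein, was 2.35-fold lower by the smaller difference, RRP15 2.16-fold and MRTO4, a large subunit assembly factor, 2.10-fold. WDR12 of the PeBoW complex and PNO1 of the small subunit path were 1.89 and 1.85-fold lower.

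The promoter of RRP9 is printed because it holds an E-box, CACGTG, the core letters that MYC and MAX bind. It is the stretch 250 bases before to 50 after the start in RefSeq's annotation of GRCh38.p14, chr3:51941855-51942154, on the minus strand, with the motif in capitals.
RRP9: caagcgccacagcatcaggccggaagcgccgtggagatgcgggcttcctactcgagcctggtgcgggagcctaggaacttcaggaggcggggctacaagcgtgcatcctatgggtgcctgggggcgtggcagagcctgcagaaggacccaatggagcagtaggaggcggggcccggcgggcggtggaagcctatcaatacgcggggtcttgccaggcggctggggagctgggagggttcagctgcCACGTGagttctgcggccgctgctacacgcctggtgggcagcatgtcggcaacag
Among the ribosome biogenesis genes called lower, 17 of 19 had a promoter in the RefSeq table and 8 of those held CACGTG (47.1%), while 16 of the 42 promoters of all measured members did (38.1%). The motif, which reads the same on both strands, stood in 14.5% of the promoters of all lower genes, 8.63% of those of higher genes, 9.64% of those of all genes compared and 7.43% of all promoters in the table. Such a match describes the letters and shows no binding.

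The rest of the machinery for making ribosomes and RNA was lower in part. Of 28 RNA polymerase subunits, 5 were called lower (17.9%) and 1 higher, with medians of -0.33 and -0.31. The lower ones included POLR1F, POLR1H and POLR1G of RNA polymerase I, the enzyme that transcribes ribosomal RNA genes, at 1.77, 1.71 and 1.63-fold by the smaller difference. POLR2A, the largest subunit of RNA polymerase II, was the higher one, with 18097 in 1#, 14152 in 2#, 10284 with control RNA and 10851 in untreated cells. WDR4, a partner of the tRNA methyltransferase METTL1, had 963.6 in 1#, 1764 in 2#, 2455 with control RNA and 2394 in untreated cells. The proteins of the cytosolic ribosome itself had medians near those of all genes, -0.04 and 0.00. Of 67 such genes, 6 were lower (8.96%), among them RPL29 (2.32-fold) and RPS15 (2.12-fold), and 3 were higher (4.48%), among them RPL28 (1.93-fold) and RPS23 (1.73-fold). Processed pseudogenes resemble these genes, so their probes may detect more than 1 transcript.

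Mitochondrial ribosomal proteins lay mostly below the controls. Of 77, 12 were called lower (15.6%) and 0 higher, 66 lay below both controls (41.3% of all genes did), and the medians were -0.31 and -0.26. MRPL4 of the large subunit had 247.6 in 1#, 389.9 in 2#, 520.8 with control RNA and 487.2 in untreated cells. MRPS17 and MRPS23 of the small subunit were 1.93 and 1.78-fold lower by the smaller difference. Import of proteins into mitochondria was lower in 5 of 24 genes (20.8%), with medians of -0.29 and -0.24, led by GRPEL1, the nucleotide exchange factor of mitochondrial HSP70, at 854.3 in 1#, 1243 in 2#, 2051 with control RNA and 1891 in untreated cells. 1# was the lowest array for MRPL4 and GRPEL1 alike. The respiratory chain and ATP synthase had medians of -0.12 and -0.13. Of 71 genes, 5 were lower (7.04%, against 3.91% of all genes) and 0 higher, and 49 lay below both controls (41.3% of all genes did). The lower ones included UQCRB of complex III (2.05-fold) and NDUFC1 of complex I (1.82-fold).

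Enzymes that make asparagine, serine, proline and folate units, many of them known targets of the stress factor ATF4, were lower in 6 of 13 cases (46.2%), with medians of -0.36 and -0.23. ASNS, asparagine synthetase, had 2394 in 1#, 2869 in 2#, 6084 with control RNA and 5872 in untreated cells. PSAT1 of serine synthesis had 1482 in 1#, 1570 in 2#, 3127 with control RNA and 3195 in untreated cells. For both genes 1# was the lowest array. PYCR1 of proline synthesis was 2.03-fold lower by the smaller difference, MTHFD1L and MTHFD2 of the mitochondrial folate path 1.76 and 1.62-fold, and CBS, which joins serine to homocysteine, 1.66-fold.

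The promoter of ASNS is printed because it holds TGATGNAA, the letters of the composite element that ATF4 and C/EBP factors bind, in capitals. It lies at chr7:97872359-97872658 of GRCh38.p14 on the minus strand and also comes from RefSeq.
ASNS: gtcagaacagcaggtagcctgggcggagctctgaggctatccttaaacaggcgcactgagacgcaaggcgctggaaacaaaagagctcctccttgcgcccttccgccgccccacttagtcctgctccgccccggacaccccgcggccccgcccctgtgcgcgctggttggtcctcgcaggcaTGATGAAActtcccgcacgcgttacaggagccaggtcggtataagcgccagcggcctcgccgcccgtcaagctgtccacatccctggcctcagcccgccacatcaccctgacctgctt
Searched on both strands, TGATGNAA stood in 3.30% of the promoters of lower genes, 2.46% of those of higher genes, 1.96% of those of all genes compared and 3.67% of all promoters in the table. ATF4 itself had 2630 in 1#, 2166 in 2#, 2941 with control RNA and 2759 in untreated cells, with 1# within 1.12-fold of the controls. The 27 measured genes listed for ATF4 and the unfolded protein response had medians of -0.12 and -0.10, with 0 called lower and 1 higher. That higher gene was DDIT4, an inhibitor of mTORC1 signalling, at 4088 in 1#, 2954 in 2#, 1997 with control RNA and 2251 in untreated cells. Counted at any size, 16 lay below both controls and 11 above both (41.3% and 43.3% of all genes did). TRIB3, ATF3 and CEBPG were lower by 1.42, 1.42 and 1.40-fold by the smaller difference, short of the limit. ASNS and PSAT1, called lower above, are counted in the list of enzymes and not in this one.

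Of 19 cytosolic aminoacyl-tRNA synthetases, which charge tRNAs with amino acids, 4 were called lower (21.1%) and 0 higher, with medians of -0.21 and -0.25. MARS1 had 1179 in 1#, 1605 in 2#, 2330 with control RNA and 2552 in untreated cells, and YARS1, NARS1 and VARS1 were 1.93, 1.78 and 1.62-fold lower by the smaller difference. By contrast AARS1 and QARS1 lay above both controls by 1.33 and 1.40-fold, short of the limit. Amino acid transporters did not move as a list: 3 of 20 were lower (15.0%) and 1 higher, with medians of -0.04 and -0.02 that turned to 0.16 and 0.16 after median scaling. Besides SLC7A5, the lower ones were SLC7A11, the cystine transporter, and SLC1A5, the glutamine transporter ASCT2, at 1.64 and 1.56-fold, whereas SLC38A2, another glutamine carrier, was 1.57-fold higher. SLC3A2, the heavy chain that pairs with SLC7A5, had 2175 in 1#, 2496 in 2#, 2746 with control RNA and 3271 in untreated cells, lowest in 1# but within 1.5-fold of control RNA.

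Protein folding genes were lower in part. TRiC chaperonin and prefoldin, which fold actin and tubulin, had 3 of 12 genes lower (25.0%) and 0 higher, with medians of -0.38 and -0.38. PFDN6, a prefoldin subunit, had 965.2 in 1#, 1423 in 2#, 2173 with control RNA and 2035 in untreated cells. CCT8 and TCP1, subunits of TRiC, were 1.89 and 1.76-fold lower by the smaller difference, while CCT5 of the same ring lay above both controls by 1.47-fold. Among HSP70, HSP90 and their partners, 5 of 25 were lower (20%) and 0 higher, with medians of -0.23 and -0.28. HSPA1B, an inducible HSP70 whose near-identical copy HSPA1A its probe may also detect, had 6322 in 1#, 8630 in 2#, 15230 with control RNA and 18056 in untreated cells. CHORDC1, a partner of HSP90, had 180.3 in 1#, 238.9 in 2#, 434.9 with control RNA and 442.8 in untreated cells. Both genes were lowest in 1#. FKBP4, HSPH1 and HSPE1 were 2.26, 1.98 and 1.60-fold lower.

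The CHORDC1 promoter is printed because it holds TTCNNGAA, a core of the heat shock element, at 3 places, shown in capitals. It lies at chr11:90223000-90223299 of GRCh38.p14, on the minus strand, from RefSeq.
CHORDC1: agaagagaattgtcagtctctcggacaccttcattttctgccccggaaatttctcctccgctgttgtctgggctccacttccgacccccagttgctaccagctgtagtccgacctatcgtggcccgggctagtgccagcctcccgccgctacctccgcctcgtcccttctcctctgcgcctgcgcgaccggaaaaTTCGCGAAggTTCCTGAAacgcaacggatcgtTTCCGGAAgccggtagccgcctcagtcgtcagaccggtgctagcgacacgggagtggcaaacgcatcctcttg
This motif, the same on both strands, stood in 5.71% of the promoters of lower genes and 4.40% of those of higher genes, beside 6.35% of those of all genes compared and 7.84% of all promoters in the table, so neither set held it more often than the background.

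Proteasome genes lay slightly below the controls, with 12 of 14 core and 14 of 16 regulator genes below both (41.3% of all genes were). The 20S core had 1 of 14 genes lower (7.14%), with medians of -0.26 and -0.20, and the 19S regulator 2 of 16 (12.5%), with -0.21 and -0.25. PSMA6 of the core was 1.62-fold lower by the smaller difference, PSMD6 and PSMD14 of the regulator 1.64 and 1.58-fold, and the assembly factors PSMG1 and POMP 1.69 and 1.55-fold. Glycolysis had 2 of 18 genes lower (11.1%), with medians of -0.35 and -0.29. These were HK2, which traps glucose as its phosphate, at 1.73-fold, and LDHB, a lactate dehydrogenase, at 1.62-fold.

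YAP and SRF targets formed the list with the widest range. Of 21 genes, 8 were called lower (38.1%), 1 was called higher, and 7 were at least 2-fold lower, with medians of -0.32 and -0.35. As this list too was drawn up with earlier results known, its share may owe part to the choice of members. Besides NPPB, TAGLN, CCN1 and TNFRSF12A, the lower ones were CCN2, ANKRD1, the actin-like gene ACTBL2 (2.16-fold by the smaller difference) and FHL2, a LIM protein (1.53-fold). CCN2, a secreted protein of the matrix like CCN1, had 2308 in 1#, 4411 in 2#, 7211 with control RNA and 7222 in untreated cells. ANKRD1, an ankyrin repeat cofactor of muscle genes, had 155.3 in 1#, 318.5 in 2#, 525.3 with control RNA and 411.4 in untreated cells. Both were lowest in 1#, with the controls nearly equal for CCN2 and further apart for ANKRD1. AXL, a receptor kinase, was the member that went the other way, at 415.6 in 1#, 283.9 in 2#, 207.9 with control RNA and 221.6 in untreated cells. In the list of the actin cytoskeleton 5 of 29 genes were lower (17.2%) and 0 higher, with medians of -0.20 and -0.26. They included TPM1, a tropomyosin (2.14-fold), and ARPC2, a subunit of the ARP2/3 complex that branches filaments (2.06-fold). ACTB, the main actin of these cells, had 27717 in 1#, 25804 in 2#, 25207 with control RNA and 27524 in untreated cells, with no array apart.

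The CCN2 promoter is printed because it holds GGAATG, the letters TEAD factors bind, at 3 places, in capitals. It lies at chr6:131951323-131951622 of GRCh38.p14, on the minus strand, from RefSeq.
CCN2: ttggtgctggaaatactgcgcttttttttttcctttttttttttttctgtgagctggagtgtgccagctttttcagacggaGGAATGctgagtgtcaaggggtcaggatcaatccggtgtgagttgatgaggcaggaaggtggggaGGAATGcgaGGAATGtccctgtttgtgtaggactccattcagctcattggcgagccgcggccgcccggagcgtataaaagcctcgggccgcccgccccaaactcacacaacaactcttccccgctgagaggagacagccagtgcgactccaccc
On either strand, GGAATG stood in 13.6% of the promoters of lower genes and 10.6% of those of higher genes, beside 11.1% of those of all genes compared and 14.0% of all promoters in the table.

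FOXO factors and genes linked to them lay mostly above the controls. Of 32 genes, 12 were called higher (37.5%, against 5.13% of all genes) and 1 lower, and 9 were at least 2-fold higher. The medians were 0.46 against control RNA and 0.36 against untreated cells, and 0.64 and 0.54 after median scaling. TSC22D3, the leucine zipper protein GILZ, had 3404 in 1#, 2108 in 2#, 1063 with control RNA and 1093 in untreated cells. TXNIP, which restrains glucose uptake and thioredoxin, had 12351 in 1#, 7643 in 2#, 5306 with control RNA and 5787 in untreated cells. CDKN1B, the cell cycle inhibitor p27, had 3171 in 1#, 1930 in 2#, 1219 with control RNA and 1286 in untreated cells. For these 3 genes 1# was the highest array and the controls were close together. BMF, a pro-apoptotic member of the BCL2 family, was 3.29-fold higher by the smaller difference, BCL6, a transcriptional repressor, 2.72-fold, TP53INP1 2.63-fold and PIK3IP1, an inhibitor of phosphoinositide 3-kinase, 2.16-fold. Of the factors themselves, FOXO4 was 2.03-fold and FOXO3 1.71-fold higher, and FOXO1, at 1622 in 1#, 1411 in 2#, 1094 with control RNA and 1267 in untreated cells, was above both controls by less than 1.5-fold. IRS2, an adaptor of the insulin receptor, was 1.72-fold higher, while MXI1, a repressor that pairs with MAX, was the member called lower, at 1.77-fold. KLF9, a zinc finger factor, at 1.84-fold, and CXCR4 were the other higher members.

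The TXNIP promoter is printed because it holds GTAAACA, the letters of the FOXO site, in capitals. It lies at chr1:145996530-145996829 of GRCh38.p14, on the minus strand, from RefSeq.
TXNIP: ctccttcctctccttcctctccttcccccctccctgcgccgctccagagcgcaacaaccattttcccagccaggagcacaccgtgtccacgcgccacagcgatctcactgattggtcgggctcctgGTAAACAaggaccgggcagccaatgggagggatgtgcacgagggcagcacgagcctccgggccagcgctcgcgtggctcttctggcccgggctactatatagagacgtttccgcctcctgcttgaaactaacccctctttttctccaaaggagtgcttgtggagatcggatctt
On either strand, GTAAACA stood in 3.70% of the promoters of higher genes and 2.64% of those of lower genes, beside 2.23% of those of all genes compared and 3.41% of all promoters in the table. In the FOXO list, 2 of the 11 higher genes with a promoter in the table held it.

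Several cell cycle inhibitors were higher and MYC was lower. Of 17 genes for CDK inhibitors, the RB family and G1 kinases, 4 were higher (23.5%) and 0 lower, with medians of 0.33 and 0.29. Besides CDKN1B these were CDKN1A (p21, 1.83-fold by the smaller difference), CDKN1C (p57, 1.72-fold) and RB1, the retinoblastoma protein (1.62-fold). CCND1, cyclin D1, had 3799 in 1#, 5819 in 2#, 5374 with control RNA and 5001 in untreated cells, so 1# was the lowest array but short of 1.5-fold. Genes of DNA replication and of mitosis did not move as lists: of 38 replication genes 2 were higher and 2 lower (5.26% in each direction), and of 35 mitotic genes 0 were higher and 1 lower. CDT1, which licenses replication origins, was higher, at 5532 in 1#, 4128 in 2#, 2189 with control RNA and 2097 in untreated cells. MYC had 263.1 in 1#, 385.2 in 2#, 520.0 with control RNA and 438.7 in untreated cells, 1.67-fold lower by the smaller difference. Its antagonist MXD4 had 5941 in 1#, 4806 in 2#, 3496 with control RNA and 3453 in untreated cells, 1.70-fold higher. MYC was thus lowest and MXD4 highest in 1#. The antagonists MXD3, MNT and MXD1 lay above both controls by 1.47, 1.42 and 1.42-fold, short of the limit. MXI1, another repressor that pairs with MAX, went the other way and was called lower, at 1.77-fold. It had 174.0 in 1#, 240.4 in 2#, 321.3 with control RNA and 308.2 in untreated cells. As a list of 9 genes that includes both activators and repressors, the MYC and MAX network had medians of 0.49 and 0.51, 1 gene higher and 2 lower.

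Interferon-stimulated genes, which cells can switch on when they sense foreign RNA, were higher in 7 of 32 cases (21.9%) and lower in 0, with medians of 0.15 and 0.19. IFI44L had 460.0 in 1#, 165.8 in 2#, 104.6 with control RNA and 101.9 in untreated cells. IFIT2 had 287.9 in 1#, 190.2 in 2#, 119.8 with control RNA and 128.2 in untreated cells. Both genes were highest in 1#, with the controls close together. Whether sensing of the transfected RNA had a part in this was not tested. IFIT1, which binds foreign RNA, IFIT3, its partner, IFITM1, a membrane restriction factor, IRF9, a factor of the interferon response, and PARP9 were 1.90, 1.69, 1.66, 1.62 and 1.56-fold higher by the smaller difference. Other well-known members did not stand apart: ISG15, a ubiquitin-like modifier, had 840.7 in 1#, 924.1 in 2#, 902.0 with control RNA and 827.5 in untreated cells, and MX1 had 199.4 in 1#, 211.2 in 2#, 196.5 with control RNA and 192.9 in untreated cells. Among the 14 genes of RNA interference 0 were called in either direction, with medians of 0.20 and 0.26. AGO2, the Argonaute that cuts, had 2842 in 1#, 2786 in 2#, 1938 with control RNA and 1783 in untreated cells.

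Genes of the insulin-like growth factor axis were higher in 4 of 16 cases (25.0%), with medians of 0.28 and 0.28. Besides IGFBP5 and IRS2, these were the ligand IGF2 (1.85-fold by the smaller difference) and PIK3R1, the regulatory subunit of phosphoinositide 3-kinase (1.76-fold). The receptor IGF1R had 2287 in 1#, 2109 in 2#, 1341 with control RNA and 1622 in untreated cells, above both controls but by less than 1.5-fold against untreated cells. Histone genes were higher in 13 of 49 cases (26.5%) and lower in 1, although their medians of 0.09 and 0.17 stayed near those of all genes. H2BC5 had 1163 in 1#, 373.8 in 2#, 331.3 with control RNA and 313.9 in untreated cells, and the linker histone H1-2 had 2951 in 1#, 1046 in 2#, 1119 with control RNA and 970.0 in untreated cells. In both genes 1# was the highest array. Histone genes are near-identical copies, so their probes may detect more than 1 of them. Of 29 lysosomal genes 2 were called higher (6.9%), close to the 5.13% of all genes, while 20 lay above both controls (43.3% of all genes did), and the medians were 0.26 and 0.25. The called genes were NPC2, which carries cholesterol out of lysosomes, at 2.01-fold, and TPP1, a lysosomal peptidase, at 1.60-fold. The metallothionein list, with 5 genes compared, had medians of 0.42 and 0.31 with 0 called in either direction. It held the metallothioneins MT1F, MT1X and MT2A, which bind zinc and copper, the transcription factor MTF1 and the zinc transporter SLC30A1. SLC30A1 lay below both controls (-0.25 by the smaller difference) and the other 4 above both.

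**Figure D4:**
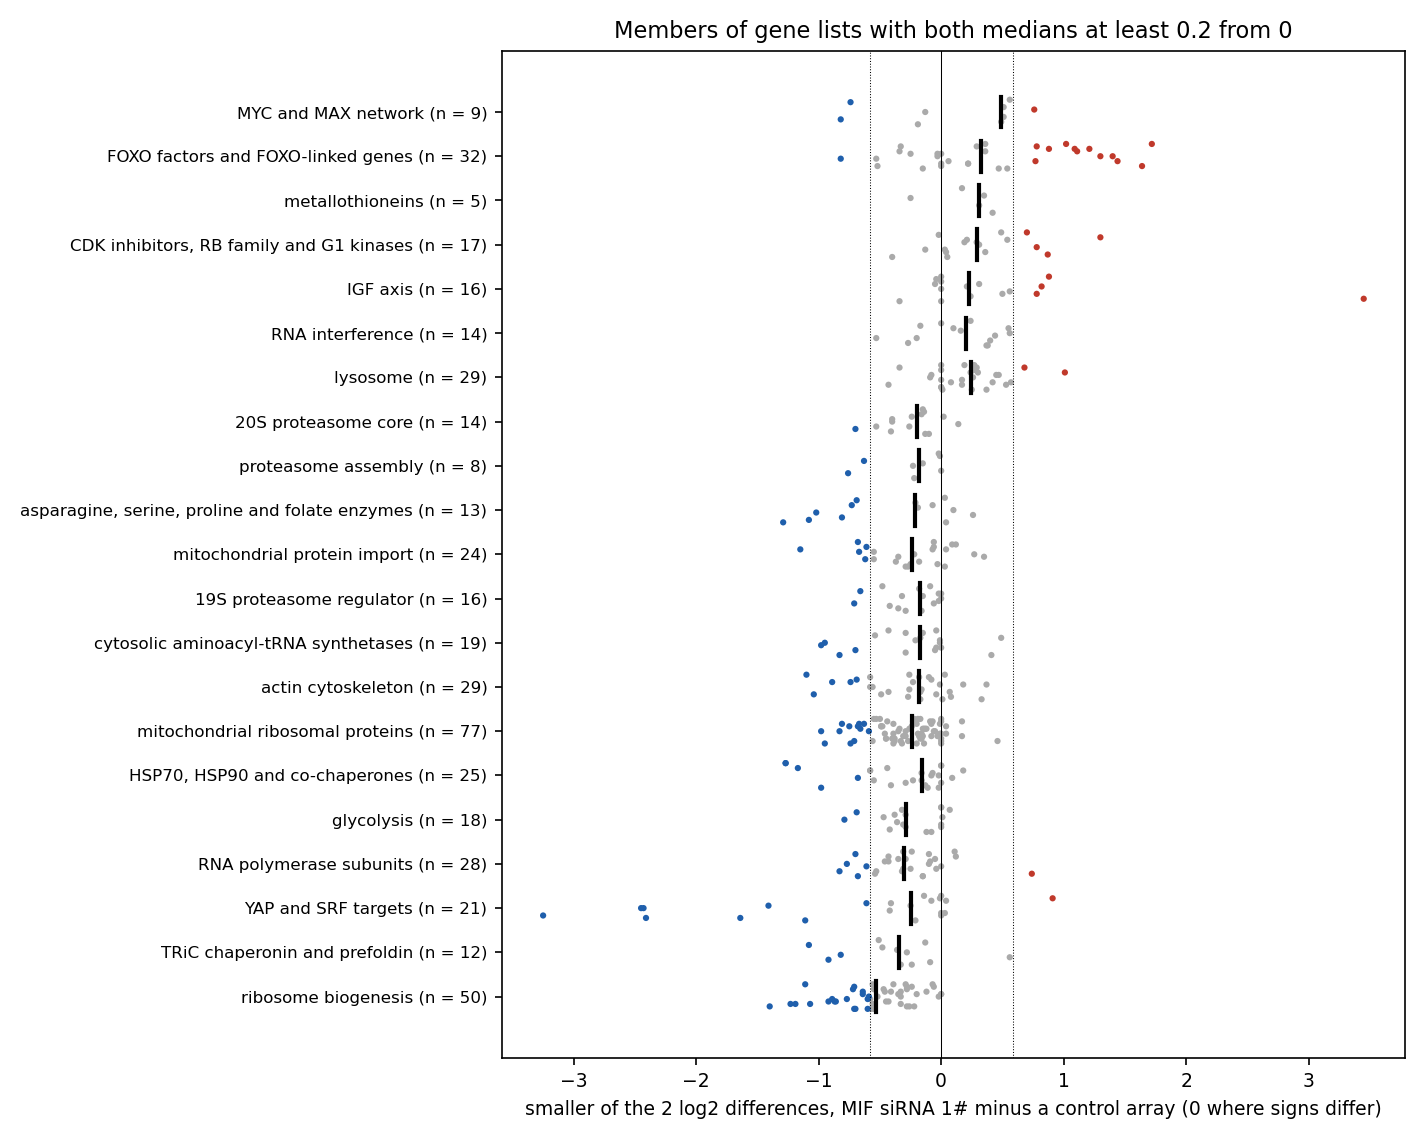
Each point is a gene of a list, placed by the smaller of its log2 differences of 1# from the control arrays (0 where their signs differ), with black bars at the list's median of that measure and dotted lines at 1.5-fold. Of 64 lists, the 21 shown had both medians at least 0.2 from 0, 7 of them above 0 (red points called higher) and 14 below (blue points called lower).

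Across the 64 lists, 14 had both medians at least 0.2 below 0 and 7 at least 0.2 above, and all of these kept the sign of both medians after median scaling. That scaling raised the median of all genes to 0.1 against control RNA and 0.12 against untreated cells, less than 0.2. It left little room for a change of sign, so the kept signs are no separate support. The lists overlap in a few genes and were drawn up with earlier results of these data known. The cell line label was checked on 13 marker genes of HEK293 cells found on the array, of which 11 passed the filter on dim probes. Of these, 3 were called higher and 0 lower, while PAX2 and NEFH were not above the filter in the 4 arrays together. The signals of the 13 genes summed to 36281 in 1#, 42624 in 2#, 40262 with control RNA and 42657 in untreated cells, lowest in 1#. KRT18, an epithelial keratin, had 12269 in 1#, 16965 in 2#, 17367 with control RNA and 18466 in untreated cells, and EYA1, SALL2 and GATA3 were 1.98, 1.84 and 1.65-fold higher in 1# by the smaller difference. Markers of blood, endothelium, liver, fibroblasts and other epithelia, 17 genes, had signals that summed (a measure in which bright probes weigh most) to 2251 in 1#, 2166 in 2#, 2159 with control RNA and 2120 in untreated cells. CD3E, HBB, HBG1, CDH5, ALB and TTR among them did not pass the filter. COL3A1, a fibrillar collagen, was the marker called higher, at 257.4 in 1#, 134.0 in 2#, 105.1 with control RNA and 105.4 in untreated cells. COL1A1, another fibrillar collagen, went the other way, at 232.4 in 1#, 304.0 in 2#, 322.7 with control RNA and 340.7 in untreated cells. Of the 11 such markers that passed the filter, 4 lay above both controls and 5 below both. The part that these marker differences had in the other results was not tested.

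Few of the dimmest genes were called: among the 3439 genes with mean signals up to 108 there were 37 higher and 3 lower ones, and among the 3439 brightest, from 1120 on, there were 182 higher and 221 lower ones. For 17 higher genes both control signals were under the median of all probes, and for 3 lower genes the 1# signal was. Another probe above the filter was at hand for 119 higher and 99 lower genes. It lay on the same side of both controls for 84 and 81 of them. Of all genes, 43.3% lay above both controls and 41.3% below both. That other probe was itself at least 1.5-fold off in the same direction for 24 and 37 genes. Of all genes, 5.13% were called higher and 3.91% lower. For 1 higher gene and 0 lower genes the other probe was as far off in the opposite direction. These probes were read on the same arrays, so they do not repeat a condition. At the limit itself, RPL37 (0.586) and KMT2E (0.585) were just inside among higher genes and MATN2 and BRPF3 (0.585, rounded) just outside, and among lower genes SEC11C and RPL26L1 (-0.585) were just inside and RTCB and PDCD4 (-0.584) just outside. Some genes lay apart from only 1 control: FKBP2 had 403.7 in 1#, 425.6 in 2#, 696.4 with control RNA and 399.9 in untreated cells. RNA28SN5, IGFBP4, FXR2 and HDAC8 likewise differed from control RNA by 1.53, 1.46, 1.39 and 1.36-fold and from untreated cells by at most 1.03-fold with the opposite sign. For these 5 genes it is the control RNA array that stood apart from the other 3. They were picked for a large difference from control RNA with the opposite sign against untreated cells, so this follows largely from the choice.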

How the data were processed

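RNA of HEK293 cells was read, in a single colour, on Illumina Human-6 bead arrays with 48701 probes. The tables deposited per sample give a linear intensity for every probe, made with BeadStudio per the submitters' processing notes (version and settings are not given in the sources used here). No value was negative (smallest 39.8) and array medians ranged from 71.9 to 78.5, so the intensities appear neither background-subtracted nor normalized. Folds of dim genes are therefore too small. A table of linear intensities for the whole series, also deposited, had a median of 73.8 in each array and was used as an alternative; the method of its normalization is likewise not given in the sources used here. From row 19832 on its probe names run 1 row apart from the names in the sample tables, and it was matched by position: over 1833 genes with probes on either side of that row, the log2 signals of a gene's probes in 1# correlated at 0.267 under the sample tables' names and at 0.039 under its own.

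Intensities of all 4 arrays were quantile-normalized with limma 3.58.1 in R 4.3.3 and turned into log2, with later steps in Python 3.11.15. The platform annotation named the probes' genes, and Entrez identifiers led to current symbols of RefSeq's GRCh38.p14: 23687 probes had 1 gene, 35 several and 24979 none listed. Each of 18774 genes took its brightest probe, and 13755 had a mean signal above the median of all probes (75.6). Precision is limited by the number of arrays, and no detection p-values were used. The pooled SD of the control arrays was 0.095 (log2). It is the SD over genes of control RNA minus untreated, scaled to a single array. Since each control is 1 array of a different condition, it does not measure the spread between repeats. The steps were tested on simulated data, in which changed genes were limited to brighter ones after dim lowered genes had been missed.

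The array compared, the members and the 64 gene lists were chosen with earlier results of these data known, and the patterns for tubulins and cytosolic ribosomal proteins were narrowed after values had been seen, to leave out pseudogenes and other families. Named genes are MIF, the 20 furthest above and the 20 furthest below both controls without placeholder names, up to 6 members per list by size, the 5 genes furthest from control RNA with the opposite sign against untreated cells, and members whose role a sentence describes. The 5 promoters printed were picked after a look at which hold their motif, and replaced earlier choices that the table lacks or that do not. Motifs were searched on both strands in RefSeq promoters from 250 bases before to 50 after the start, each by itself, so matches of different motifs may share bases. The alternatives were median scaling, normalization over 3 arrays, the series value table, normexp background correction (offset 50), no filter or a filter at the 75th percentile, the mean of a gene's probes, and each control array alone.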

Additional observations from a re-analysis of the deposited data

Results flagged for a closer look

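Probes without a gene name took no part in the comparison of genes. Of the 8213 of them above the median of all probes, 76 were at least 1.5-fold higher in MIF siRNA 1# than in both control arrays (0.925%) and 107 at least 1.5-fold lower (1.3%). The corresponding shares of the 13755 named genes were 5.13% and 3.91%. What these probes detect is not given in the tables used here.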

How the results depend on the processing

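Median scaling moved the counts most: genes at least 1.5-fold from both controls became 1398 higher and 270 lower, against 705 and 538, and at 2-fold 274 higher and 39 lower, against 141 and 75. Against the control RNA array alone, 126 genes were at least 2-fold lower. Each other alternative kept all 4 counts within 1.5 times. The MIF difference ranged from -0.98 to -0.90 (log2) over the alternatives, on the same side in each. No named gene called at 1.5-fold changed sign under any alternative run, and neither did a list whose median, relative to all genes, was at least 0.1 from 0. For called genes, MIF included, this was fixed in advance with each control array alone, since a call needs both differences on the same side. It was also fixed under the changed filters, which leave the values of a gene as they are. Under median scaling 14 of the 64 lists moved relative to all genes by more than the pooled SD of the control arrays (0.095). Of the 388 other named genes, 270 moved by more than that in their own differences, which are not relative to all genes. These moves include the shift of the median of all genes, from 0.01 to 0.10 against control RNA and 0.12 against untreated cells. What else had a part in the shifts was not tested. No paired analysis was possible because no result comes from a test and each condition has 1 array. The limits that bear on all results are that no condition was repeated, that dim genes keep background in their signal, and that genes seen by a single probe have no second measurement on the array.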

Other observations

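Sterol and lipid synthesis differed gene by gene. Of 25 genes 5 were at least 1.5-fold lower in 1# than in both controls (20%, against 3.91% of all genes) and 1 higher. HMGCS1 of the mevalonate path had 2295 in 1#, 3053 in 2#, 4780 with control RNA and 4826 in untreated cells. FADS1, a fatty acid desaturase, had 6179 in 1#, 4247 in 2#, 3068 with control RNA and 3058 in untreated cells, so these genes lay at opposite ends. PFAS of purine synthesis was 2.26-fold lower by the smaller difference, and 3 of 24 genes of nucleotide synthesis were lower (12.5%).

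Genes of the extracellular matrix and its receptors were higher in 12 of 70 cases (17.1%, against 5.13% of all genes) and lower in 2. COL4A5, a basement membrane collagen, had 2306 in 1#, 1197 in 2#, 852.1 with control RNA and 910.0 in untreated cells, and COL5A2 and LAMB2 were 2.02 and 2.01-fold higher. TGFBI and THBS1, secreted matrix proteins, were 1.97 and 1.97-fold lower. NR2F1, an orphan nuclear receptor, had 827.1 in 1#, 687.9 in 2#, 310.9 with control RNA and 273.4 in untreated cells. Of 15 NF-kB genes 2 were higher and 1, NFKBIB, was lower (1.87-fold). The higher ones were NFKBIA, an inhibitor of NF-kB, at 2.28-fold and CXCL8, a chemokine, at 1.95-fold. CXCL8 had 382.3 in 1# and 194.5 in 2#, against 181.0 with control RNA and 196.4 in untreated cells, so 1# was the highest array.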
